A study of Mus musculus with 2 samples.

Results

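Ddit3, Atf3, Atf4, Trib3, Chac1, Asns, Ppp1r15a and Xbp1 are genes of the integrated stress response and of the neighbouring unfolded protein response. These 8 genes were chosen by name, and all 8 were found among the 27998 genes of the count matrix. The series has 2 groups of pancreatic islets, from transgenic (TG) mice with a beta cell specific miR-203 transgene and from wild-type (WT) mice, each 1 droplet-based 3′ library of single cells. All mice were males of 8 weeks that had no food for 12 hours, and the labels state that islets were frozen in liquid nitrogen. The TG library is not analysed here, and no source used here names the promoter of the transgene. All values below come from the WT library. With 1 library there is no replicate and no difference was tested, so each interval (exact, 95%) reflects the error of counting alone.

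The integrated stress response starts when a kinase phosphorylates the translation factor eIF2alpha. Protein synthesis then slows, while the Atf4 mRNA is translated more, and ATF4 switches on genes of amino acid supply and of cell stress. In beta cells, which make large amounts of proinsulin, the kinase PERK (Eif2ak3) links protein folding stress in the endoplasmic reticulum to this response. The unfolded protein response has 2 further sensors, IRE1, which splices the Xbp1 mRNA, and ATF6. A 3′ count gives the amount of an mRNA, not its translation and not the splicing of Xbp1.

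The promoters of the genes were searched for elements that these factors are known to bind. The 250 bases before the RefSeq start of each gene (build GRCm38.p6) were searched on both strands for TGATGNAA, the C/EBP-ATF response element at which ATF4 acts, for TGACGTCA, the cAMP response element bound by ATF and CREB factors, and for the ER stress response element (CCAAT and CCACG with any 9 bases between them). TGATGNAA was found for Atf3, Chac1 and Asns, and in 3.45% of all 32851 RefSeq promoter windows of that length. TGACGTCA was found for Ppp1r15a and in 1.55% of windows, and the ER stress response element in none of the 8 windows and in 0.113% of all. The windows of Ddit3, Atf4, Trib3 and Xbp1 held no exact match to any of the motifs. Elements with a changed letter or further from the start would be missed, so these promoters may still hold them. The windows with a match are shown 5′ to 3′ on the strand of the gene, because their genes are compared below, with the match in capitals. They lie at chr1:191183334-191183583 (minus strand), chr2:119350992-119351241 (plus strand), chr6:7693210-7693459 (minus strand) and chr7:45526269-45526518 (minus strand).
Atf3: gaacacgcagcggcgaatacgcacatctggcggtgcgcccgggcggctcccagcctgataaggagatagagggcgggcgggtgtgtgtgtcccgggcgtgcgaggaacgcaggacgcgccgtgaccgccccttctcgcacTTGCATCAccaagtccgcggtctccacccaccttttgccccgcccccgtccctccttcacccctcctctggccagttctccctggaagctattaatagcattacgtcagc
Chac1: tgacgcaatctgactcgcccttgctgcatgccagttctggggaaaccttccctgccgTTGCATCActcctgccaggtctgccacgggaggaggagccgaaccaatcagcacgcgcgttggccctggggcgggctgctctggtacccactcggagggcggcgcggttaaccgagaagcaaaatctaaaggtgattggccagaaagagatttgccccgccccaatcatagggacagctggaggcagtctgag
Asns: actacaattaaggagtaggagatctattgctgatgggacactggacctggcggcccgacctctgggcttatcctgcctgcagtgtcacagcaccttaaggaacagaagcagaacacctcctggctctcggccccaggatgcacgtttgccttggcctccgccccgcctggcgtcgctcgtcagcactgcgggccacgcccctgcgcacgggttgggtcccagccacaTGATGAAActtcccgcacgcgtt
Ppp1r15a: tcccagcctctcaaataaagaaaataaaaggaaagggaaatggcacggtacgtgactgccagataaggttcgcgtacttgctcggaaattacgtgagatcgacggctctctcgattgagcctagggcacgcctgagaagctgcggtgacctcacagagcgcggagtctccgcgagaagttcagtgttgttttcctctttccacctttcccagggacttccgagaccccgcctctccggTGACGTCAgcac
The first base of the match lay 110 bases before the start in Atf3, 193 in Chac1, 23 in Asns and 12 in Ppp1r15a. In Atf3 and Chac1 the element was read on the opposite strand, with the same 8 letters in both. A match is a description of the letters and does not show that a factor binds there.

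The library had a depth of 118523180 UMIs, the molecular tags that count a captured transcript once. Cells were the 4547 barcodes that passed minima on UMIs (the lowest cell had 5641) and on genes (500), with a median of 21643 UMIs and a range from 11071 at the 10th to 36086 at the 90th percentile. Each cell was put in the first class whose limit it met. There were 3261 beta cells (Ins1 and Ins2 at least 30% of UMIs), 471 alpha cells (Gcg at least 8%), 149 delta cells (Sst at least 3%) and 117 PP cells (Ppy at least 8%), while 549 cells met no limit. Beside the hormones, the 10 genes with the highest fold over all other cells included Ucn3 and G6pc2 in beta cells, Ttr and Gpx3 in alpha cells, and Rbp4 and Hhex in delta cells. In PP cells the 10 held Ppy and Pyy and also Gast, Cck and 3 haemoglobin genes, and haemoglobin markers made up 0.197% of their UMIs, against 0.00170% in beta cells. Cells that met more than 1 limit numbered 3 in the beta, 48 in the alpha and 12 in the delta class. No doublet caller was run. The median insulin share was 50.6% in beta cells, 2.59% in alpha, 2.51% in delta and 3.03% in PP cells.

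Hormone transcripts took up 56.7% of all UMIs in beta cells, 29.8% in alpha, 23.1% in delta and 44.3% in PP cells, which lowered every other gene unevenly. Levels are therefore given as UMIs per 1000000 non-hormone UMIs (Ins1, Ins2, Iapp, Gcg, Sst, Ppy and Pyy left out), called CPM below. A 3′ count does not depend on gene length, but capture differs between genes, so levels are compared across classes and not between genes. Behind them stand 36104897 non-hormone UMIs in beta, 5530306 in alpha, 1325144 in delta and 1416597 in PP cells. On this scale the median gene still stood at log2 0.35 in beta over alpha, 0.03 over delta and 0.11 over PP cells, so log2 ratios are given relative to the median gene. A gene was counted as higher or lower in beta cells beyond 1.5-fold, among those that reached 20 CPM in 1 or both of the classes compared. Free RNA was bounded from above by taking all Ins2 of a non-beta class to be free RNA with the composition of droplets of at most 200 UMIs. That makes at most 9.50% of the UMIs of alpha, 15.2% of delta and 14.9% of PP cells.

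Of the 4 hormone classes, beta cells had the highest CPM of 7 of the 8 genes, all but Xbp1. For Ppp1r15a their interval overlapped that of delta cells. The share of all genes with their highest CPM in beta cells was not computed, so this count has no background. It also depends on the scale. On that of all UMIs, Atf4 was lower in beta than in delta (log2 -0.38) and PP cells (-0.07). Ppp1r15a was lower there than in delta cells (-0.69), while the rest of the 7 still led. In beta over alpha cells, 4 of 8 were higher beyond 1.5-fold (Ddit3, Trib3, Chac1 and Asns) and 0 lower, where 16.8% of the 6709 genes compared were higher and 15.4% lower. In beta over delta cells, 5 of 8 were higher (the same 4 and Atf3) and 0 lower, against 17.5% higher and 16.8% lower of 7061 genes. In beta over PP cells, 6 of 8 were higher (those 5 and Ppp1r15a) and 0 lower, against 15.9% higher and 14.5% lower of 6847 genes. The median log2 ratio of the 8 genes was 0.84 over alpha, 1.13 over delta and 1.26 over PP cells, where that of all genes compared is 0 by construction. Atf4 and Xbp1 lay within 1.5-fold of the median gene in all 3 contrasts. Trib3 reached the 20 CPM only in beta cells in the contrasts with alpha and PP cells, so there its entry and its direction are tied. Mitochondrially encoded genes made up 7.46% of non-hormone UMIs in beta cells, 3.35% in alpha, 3.62% in delta and 4.38% in PP cells.

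The counts depend on the scale. Without the step that sets ratios relative to the median gene, 7 of 8 were higher in beta than in alpha cells, all but Xbp1, and so were 33.0% of all genes, with 8.50% lower. With mitochondrial UMIs left out of the total as well, 7 of 8 and 37.4% of genes were higher, with 7.62% lower. On the scale of all UMIs, where the hormones of beta cells dilute the rest, 4 of 8 were higher and 1 lower over alpha cells (7.30% and 40.6% of genes), 1 higher and 2 lower over delta cells (2.87% and 71.5%), and 5 higher and 0 lower over PP cells (7.49% and 30.3%). Ddit3 was higher under each of these scales, while over delta cells Atf3, Trib3, Chac1 and Asns dropped to log2 0.42, 0.44, 0.24 and 0.54 on the scale of all UMIs.

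**Figure D1:**
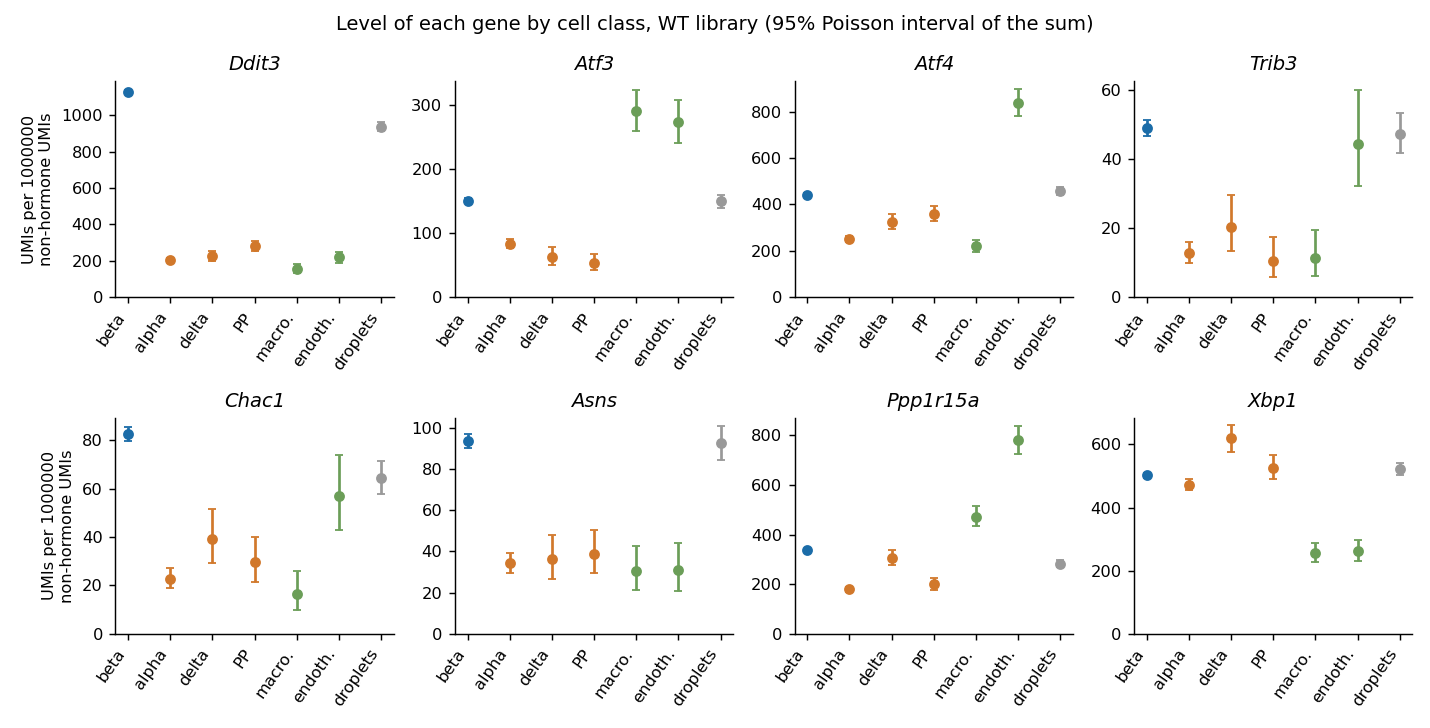
Level of each gene (vertical axis, UMIs per 1000000 non-hormone UMIs, from 0) in beta, alpha, delta, PP, macrophage-like and endothelial-like cells and in droplets of at most 200 UMIs. Points are sums over the cells of a class and bars the 95% Poisson interval; Ddit3 stands apart in beta cells at 1128 CPM, while Atf4 and Ppp1r15a are highest in endothelial-like cells.

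Ddit3 encodes CHOP, a transcription factor induced by ATF4 and tied to cell death under lasting stress. It stood at 1128 CPM in beta cells (1117 to 1139, 40721 UMIs), 204 in alpha (192 to 216), 224 in delta (199 to 251) and 282 in PP cells (255 to 311). The beta level lay far outside the intervals of the other classes, and those of alpha and delta cells overlapped. Relative to the median gene the log2 ratio of beta cells was 2.12 over alpha (2.03 to 2.21), 2.31 over delta (2.14 to 2.48) and 1.89 over PP cells (1.74 to 2.03). Only 144 of the 6709 genes had a higher ratio over alpha cells, 97 over delta and 110 over PP cells. Free RNA is rich in Ddit3, at 938 CPM in droplets, and could give up to 34.7% of the alpha, 46.0% of the delta and 49.5% of the PP level. With free RNA subtracted the log2 ratios rose to 2.62, 3.06 and 2.66. Other settings lowered them. On the scale of all UMIs they were 1.769 over alpha, 1.504 over delta and 1.635 over PP cells. Among cells of at least 10000 UMIs the ratio over delta cells was 1.955.

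In GENCODE M21 (GRCm38) Ddit3 lies on chromosome 10 (127290774 to 127296288, plus strand), and at its 3′ end the annotation places the end of Mars, the methionyl-tRNA synthetase gene, on the opposite strand from 127296221 onward. No source used here states whether strand was used in counting, so UMIs of these 2 genes near that end cannot be assigned with certainty. Mars stood at 28.0 CPM in beta and 13.9 in alpha cells, with a log2 ratio of 0.66.

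Trib3, Chac1 and Asns are targets of ATF4. Trib3, a pseudokinase that in turn restrains ATF4 and CHOP, stood at 49.0 CPM in beta cells (46.7 to 51.3, 1769 UMIs), 12.7 in alpha (9.87 to 15.99, 70 UMIs), 20.4 in delta (13.4 to 29.6, 27 UMIs) and 10.6 in PP cells (5.93 to 17.5, 15 UMIs). The beta interval was separate from the others, which overlapped one another. Its log2 ratio was 1.61 (1.26 to 1.97) over alpha, 1.24 (0.69 to 1.85) over delta and 2.10 (1.37 to 2.94) over PP cells. Up to 66.3% of the PP level could be free RNA, and with free RNA subtracted the ratio over PP cells was 3.43. Without delta cells of over 5% insulin the ratio over delta cells was 1.86, and among cells of at least 10000 UMIs it was 0.74. Delta cells had a median of 9179 UMIs, against 23415 in beta cells.

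Chac1, which degrades glutathione, stood at 82.5 CPM in beta cells (79.5 to 85.5, 2977 UMIs), 22.8 in alpha (19.0 to 27.1), 39.2 in delta (29.3 to 51.5) and 29.6 in PP cells (21.4 to 40.1). Its log2 ratio of beta cells was 1.51 (1.25 to 1.78) over alpha, 1.05 (0.65 to 1.47) over delta and 1.36 (0.93 to 1.84) over PP cells. Among cells of at least 10000 UMIs the ratio over delta cells was 0.72. Again beta cells stood apart and the intervals of neighbours in the order delta, PP, alpha overlapped. Asns, which makes asparagine, stood at 93.4 CPM in beta cells (90.3 to 96.7, 3374 UMIs), 34.2 in alpha (29.5 to 39.4), 36.2 in delta (26.7 to 48.0) and 38.8 in PP cells (29.2 to 50.5). The 3 non-beta classes did not differ beyond counting error. Its log2 ratios were 1.11 (0.89 to 1.32), 1.34 (0.93 to 1.78) and 1.16 (0.77 to 1.57) over alpha, delta and PP cells.

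In the same annotation Trib3 (152337422 to 152344032, minus strand) and Chac1 (119351229 to 119354381, plus strand) lie on chromosome 2 and Asns on chromosome 6 (7675169 to 7693254, minus strand), and no other gene overlaps them.

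The transcription factors Atf3 (chromosome 1, 191170296 to 191218039, minus strand) and Atf4 (chromosome 15, 80255184 to 80257541, plus strand) showed smaller ratios. Atf3, an early stress factor that is also induced with immediate early genes, stood at 150.4 CPM in beta cells (146 to 154, 5431 UMIs), 83.5 in alpha (76.1 to 91.5), 63.4 in delta (50.6 to 78.5) and 53.6 in PP cells (42.3 to 67.2). Its log2 ratio was 0.50 (0.37 to 0.64) over alpha, with an interval that crosses the 1.5-fold limit of 0.58, and 1.22 (0.91 to 1.55) over delta and 1.38 (1.05 to 1.72) over PP cells. Atf4 stood at 442 CPM in beta cells (435 to 449, 15960 UMIs), 251 in alpha (238 to 265), 324 in delta (295 to 357) and 361 in PP cells (330.1 to 393). Its log2 ratio was 0.47 (0.39 to 0.55) over alpha, 0.42 (0.28 to 0.56) over delta and 0.18 (0.05 to 0.31) over PP cells. On the scale of all UMIs its sign turned over delta (-0.38) and PP cells (-0.07).

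Ppp1r15a encodes GADD34, which brings a phosphatase to eIF2alpha and ends the response. It stood at 337 CPM in beta cells (331 to 343, 12158 UMIs), 179 in alpha (168 to 191), 307.1 in delta (278 to 338) and 200.5 in PP cells (178 to 225). Beta and delta cells overlapped, with a log2 ratio of 0.11 (-0.04 to 0.25) that turned to -0.69 on the scale of all UMIs. The ratio was 0.57 (0.47 to 0.66) over alpha cells, at the edge of the 1.5-fold limit, and 0.64 (0.47 to 0.81) over PP cells. Ppp1r15a lies on chromosome 7 (45522916 to 45526268, minus strand), and its end overlaps the end of Tulp2 on the opposite strand.

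Xbp1 (chromosome 11, 5520659 to 5525893, plus strand), the target of IRE1, went apart from the rest. It stood at 502 CPM in beta cells (495 to 510, 18135 UMIs), 472 in alpha (454 to 491), 619 in delta (577 to 663) and 527 in PP cells (489 to 566), so beta cells did not lead. Its log2 ratio was -0.26 (-0.32 to -0.20) over alpha, -0.33 (-0.43 to -0.22) over delta and -0.18 (-0.29 to -0.07) over PP cells. The sign over alpha cells turned to 0.09 when the ratio was not set relative to the median gene and to 0.15 when mitochondrial UMIs were left out as well.

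**Figure D2:**
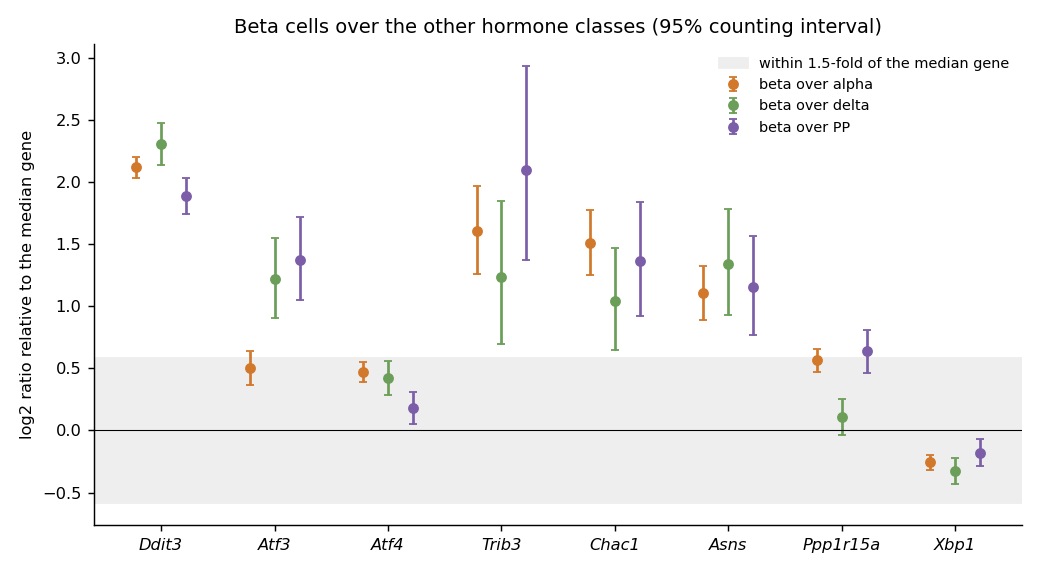
Log2 ratio of beta cells over alpha, delta and PP cells for each gene (vertical axis, relative to the median gene), with the 95% counting interval as bars and the band within 1.5-fold of the median gene in grey. Ddit3 lies between 1.89 and 2.31, Trib3, Chac1 and Asns lie above the band in all 3 contrasts, and Atf4 and Xbp1 lie inside it.

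Among the cells that met no hormone limit, 94 were macrophage-like and 115 endothelial-like, with at least 10 UMIs from at least 3 marker genes. Macrophage markers made up 4.02% of UMIs in the macrophage-like cells (10 of 10 genes detected) and 0.0122% in beta cells, and endothelial markers 1.04% in the endothelial-like cells (7 of 7 detected) and 0.00240% in beta cells. Atf4 stood at 838 CPM in endothelial-like cells (781 to 898, 811 UMIs), against 219 in macrophage-like (193 to 248) and 442 in beta cells. Ppp1r15a stood at 780.1 in endothelial-like (725 to 838), 472 in macrophage-like (433 to 514) and 337 in beta cells, and Atf3 at 273 (241 to 308), 291 (260.2 to 323) and 150.4. The median gene stood at log2 -0.28 in endothelial-like and -0.77 in macrophage-like over beta cells. Relative to it, Ppp1r15a (log2 1.49, 1.39 to 1.60), Atf4 (1.20, 1.10 to 1.31) and Atf3 (1.14, 0.96 to 1.32) were higher beyond 1.5-fold in endothelial-like than in beta cells, and so were 34.1% of the 7650 genes compared. Ddit3 (218 CPM, log2 -2.09), Asns (31.0, -1.31) and Xbp1 (263, -0.65) were lower beyond 1.5-fold, and so were 34.1% of genes. Trib3 (44.4 CPM, log2 0.14, -0.33 to 0.58) and Chac1 (56.8, -0.25, -0.67 to 0.13) had intervals that include 0. In macrophage-like over beta cells, 2 of 8 were higher, Atf3 (log2 1.72) and Ppp1r15a (1.26), where 31.5% of 7241 genes were. Ddit3 (156 CPM, -2.08), Chac1 (16.5, -1.54), Trib3 (11.3, -1.34) and Asns (30.4, -0.84) were lower, where 28.4% of genes were. Haemoglobin genes led the endothelial-like cells and made up 3.37% of their UMIs, and in the 109 of them with at most 0.5% haemoglobin Atf4 stood at 886 and Ppp1r15a at 822 CPM, with log2 ratios over beta cells of 1.21 and 1.49. Immediate early genes made up 1.20% of non-hormone UMIs in endothelial-like cells, 0.451% in macrophage-like, 1.00% in beta, 0.449% in alpha, 0.705% in delta and 0.566% in PP cells. Heat shock genes of the cytosol made up 1.63%, 0.905%, 1.62%, 1.08%, 2.01% and 1.14% in the same classes. The part of these 2 groups in the levels of the stress response genes was not tested.

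The levels just inside and just outside the insulin limit of the beta class are given as a description. The 192 cells with 30 to 35% insulin held 1158 CPM Ddit3 (1117 to 1199.7), against 899 (852 to 948) in the 109 cells of no class with 25 to 30%. Atf3 stood at 168 (153 to 185) inside and 131 (113 to 150.2) outside the limit, and Ppp1r15a at 342 (319.7 to 365) and 290.3 (264 to 319), so that these 3 genes were higher inside with separate intervals. For the other 5 genes the intervals overlapped, though their levels were also higher inside. The share of all genes with separate intervals between these groups of cells was not computed, so these counts have no background. Atf4 stood at 447 (422 to 473) and 395 (364 to 428), Trib3 at 46.2 (38.3 to 55.2) and 33.5 (24.9 to 44.0), Chac1 at 89.3 (78.2 to 102) and 70.9 (58.2 to 85.7), Asns at 71.6 (61.7 to 82.7) and 66.3 (54.0 to 80.6), and Xbp1 at 560.5 (532 to 590.04) and 547.2 (511 to 586).

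Further genes of the pathway were taken from lists. A minimum of 20 CPM in 1 or both classes lets in genes that reach it only in beta cells, which was so for 5 of the 7 genes of amino acid synthesis that passed it over alpha cells. The lists were therefore counted over all their genes with a UMI in both classes, relative to the median of all such genes, a filter applied to the lists after the data were seen. Under it 21.0% of 15327 genes were higher in beta than in alpha cells and 23.8% lower, 21.3% of 13859 higher and 24.5% lower over delta cells, and 20.5% of 13870 higher and 22.9% lower over PP cells. The filter also lets in genes of few UMIs, so parts of these counts are uncertain. Over alpha cells Slc7a3 had 17 UMIs in beta and 1 in alpha cells, and Cth 10 and 3. Over delta cells Slc6a9 and Tnfrsf10b had 1 UMI in delta cells and were counted as higher. The values of named genes are those of the 2 highest and 2 lowest genes over alpha cells among those that reached 20 CPM. Among those named below, Phgdh, Shmt2, Pycr1 and Wars reached it only in beta cells, so their entry and direction are tied.

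Of 18 other genes induced by ATF4 or CHOP, 16 had a UMI in both classes over alpha cells, with 7 higher in beta cells, 2 lower and a median log2 of 0.46. Nupr1, a stress-induced chromatin protein, was highest at 379 CPM in beta and 25.1 in alpha cells (log2 3.57, 3.33 to 3.82), of which up to 88.0% in alpha cells may be free RNA. Atf5, a factor related to ATF4, followed at 460 and 62.7 CPM (log2 2.53, 2.37 to 2.68). The growth arrest genes Gadd45a (72.5 and 145, log2 -1.35) and Gadd45b (167 and 277, log2 -1.08) were lower in beta cells. Over delta cells 11 of 16 were higher and 0 lower, and over PP cells 8 of 15 were higher and 2 lower.

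Of 13 genes of amino acid synthesis and one-carbon metabolism, 6 were higher in beta than in alpha cells and 1 lower, with a median of 0.52. Phgdh, the first enzyme of serine synthesis, stood at 40.5 CPM in beta and 9.40 in alpha cells (log2 1.76), Shmt2, its mitochondrial one-carbon partner, at 22.05 and 8.68 (0.999), Pycr1 of proline synthesis at 26.8 and 18.4 (0.20) and Aldh18a1 of the same pathway at 35.2 and 25.5 (0.12). Over delta cells 9 of 12 were higher and over PP cells 8 of 12, with 0 lower in both. Of 10 amino acid transporters, 5 were higher than in alpha cells and 1 lower, among them Slc7a5 (95.03 and 46.3 CPM, log2 0.69) and Slc38a2 (92.5 and 48.1, 0.60), with Slc7a1 at 0.10 and Slc36a4 at -0.22. Over delta cells 5 of 9 were higher and over PP cells 3 of 9, with 1 lower in both. Of the 5 transporters that reached 20 CPM, 2 were higher over alpha, 3 over delta and 2 over PP cells, with 0 lower. The shares of all genes higher at that minimum were 16.8%, 17.5% and 15.9%.

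Of 13 aminoacyl-tRNA synthetases, which charge tRNAs, 3 were higher in beta than in alpha cells, a share near that of all genes, and 0 lower (median 0.27). The highest were Wars (55.6 and 14.5 CPM, log2 1.60) and Sars (305 and 127, 0.92), with Vars at -0.18 and Tars at -0.30. Over delta cells 8 of 13 were higher and over PP cells 4, with 0 lower in both. Of 17 genes of eIF2alpha kinases, eIF2 and eIF2B subunits and phosphatases, 2 were higher over alpha cells and 1 lower (median -0.01), both shares below those of all genes. Dnajc3, an inhibitor of PERK, stood at 326 and 169.97 CPM (log2 0.59), followed by Eif2b5 at 0.48, while Eif2s1, the subunit that is phosphorylated, stood at -0.22 and the phosphatase Ppp1ca at -0.32. Over delta cells 3 of 17 were higher and 2 lower, again below the shares of all genes, and over PP cells 5 were higher and 1 lower. Of 21 genes of the IRE1 and ATF6 arms, 12 were higher and 1 lower over alpha cells (median 0.79), 15 higher over delta and 13 over PP cells, with 0 lower in both. Edem1 (log2 1.78) and Sel1l (1.71), which help to remove misfolded proteins, were the highest, Sec61b of the translocon stood at -0.13 and Creb3l2, a membrane-bound transcription factor, at -0.67.

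Immediate early genes had 10 of 16 higher and 2 lower over alpha cells (median 0.87), from Fosb (1717 and 284 CPM, log2 2.25) and Fos (962 and 165, 2.20) to Zfp36 (-0.93) and Klf4 (-1.001). Over delta cells 8 of 16 were higher and 0 lower, and over PP cells 9 were higher and 2 lower. Cytosolic heat shock genes had 3 of 9 higher and 1 lower over alpha cells (median 0.11), with Dnajb1 (log2 1.64) and Hspa1b (0.71) highest and Hspe1 (-0.53) and Hspb1 (-0.91) lowest. Over delta cells 1 of 9 was higher, below the share of all genes, and 3 lower, and over PP cells 3 were higher and 1 lower.

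The genes also varied among beta cells. For this, each beta cell was thinned at random to 4000 non-hormone UMIs, so that depth is equal, which left 3178 of 3261 cells. Ddit3 averaged 4.47 UMIs per thinned cell, with 1 at the 10th percentile, a median of 4, 9 at the 90th and 31 in the highest cell. Its variance was 2.59 times its mean, where counting alone gives about 1 and the median of 46 genes of like mean (within 25%) was 1.25, with 1 of them above Ddit3. Atf3 averaged 0.573 UMIs, with none in 68.1% of cells and 12 in the highest, and its variance was 2.32 times its mean, above all but 7 of 555 genes of like mean (median 1.06). Before thinning, 53.2% of beta cells held an Atf3 UMI, against 43.3% of alpha cells. None of these classes is known to lack the gene, so these shares have no background level.

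Ppp1r15a (1.43 times its mean, 19 of 196 genes above it), Atf4 (1.34, 17 of 126) and Chac1 (1.29, 22 of 1058) also spread more than most genes of like mean. Trib3 (1.08, with 221 of 1295 above), Asns (1.05, 467 of 962) and Xbp1 (1.11, 63 of 114) did so less or not at all. At averages of 0.195 UMIs for Trib3, 0.320 for Chac1 and 0.360 for Asns, a spread between cells beyond counting is hard to detect at this depth.

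**Figure D3:**
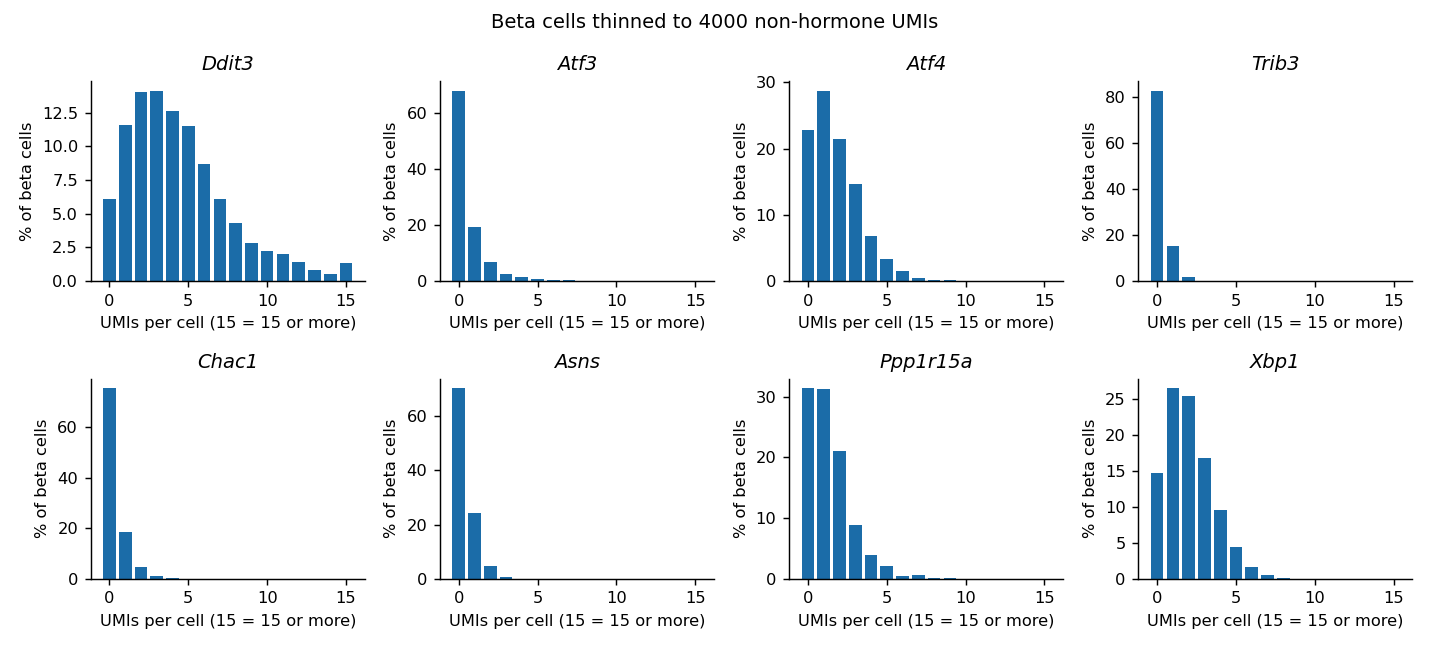
Share of 3178 beta cells (vertical axis, percent) by UMIs per cell of each gene after thinning to 4000 non-hormone UMIs (horizontal axis, with 15 standing for 15 or more). Ddit3 spreads from 0 to over 15 UMIs around a median of 4, while Trib3, Chac1 and Asns hold 0 UMIs in most cells.

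Over the thinned beta cells, 6 of the genes were weakly and positively correlated with each other, while Asns and Xbp1 were not correlated with them. This grouping into 6 and 2 genes was made after their values were seen. The cells share 1 library and a fixed total, and the correlations (Spearman's rho) are a description. Averaged over 20 random draws of the thinning, all 15 pairs among Ddit3, Atf4, Atf3, Chac1, Ppp1r15a and Trib3 were positive, between 0.0500 and 0.144. The highest was that of Ddit3 with Atf4 (0.144, from 0.121 to 0.165 over the draws), then Ddit3 with Atf3 (0.139, 0.115 to 0.174), Atf4 with Chac1 (0.129, 0.0942 to 0.152) and Atf3 with Atf4 (0.111, 0.0750 to 0.138). The 12 pairs of Asns or Xbp1 with those 6 genes lay between -0.0200 and 0.0308, and Asns with Xbp1 at -0.00132. The median over all 28 pairs was 0.0503 in the first draw and 0.0523 over 20 draws, and the median rho of these genes with all 5667 genes of at least 0.1 UMIs per cell was -0.000330. Sparse counts pull rho toward 0, so a value near 0 does not show that Asns is unrelated.

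In the first draw, 7 of 28 pairs were over 0.1. Ddit3, Atf3 and Atf4 each had 3 of 7 partners over it, where 0.812%, 0.459% and 0.3% of 5666 genes were over it with them. Chac1 and Ppp1r15a had 2 (0.0882% and 0.141% of genes), Trib3 had 1 (0.0176%), and Asns and Xbp1 had 0 (0% and 0.0529%). Over 20 draws, Atf4 was the gene most like Chac1 and Trib3 among these 8, and it ranked number 2 of 5666 genes for both. In the first draw Chac1 was more like Trib3 (0.105) than Atf4 was (0.0917). Ddit3 ranked number 3 for Atf4 and number 4 for Atf3, and Atf3 ranked number 4 for Ppp1r15a. For Ddit3 itself the best partner among these 8, Atf4, ranked only number 17. The best partner among these 8 ranked number 376 for Asns and number 268 for Xbp1. Chac1, Atf3 and Asns, which share the TGATGNAA element shown above, had a rho of 0.129, 0.111 and 0.0122 with Atf4. Ddit3 and Trib3, with no exact match in their windows, had 0.144 and 0.0849. The part of the element in these values was not tested, and the amount of Atf4 mRNA does not give its translation.

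**Figure D4:**
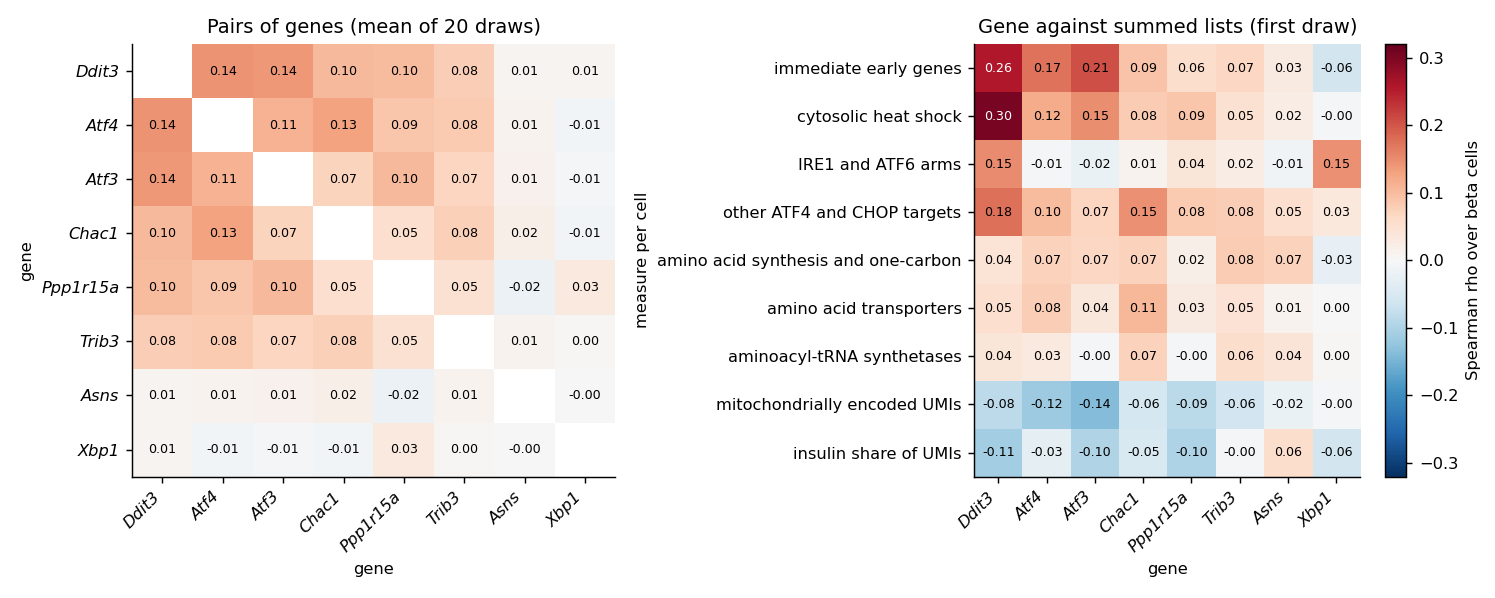
Spearman's rho over 3178 beta cells thinned to 4000 non-hormone UMIs, between pairs of genes (left, mean of 20 draws) and between each gene and the summed UMIs of gene lists or cell measures (right, first draw), with the colour scale from -0.32 to 0.32. The block of 6 genes from Ddit3 to Trib3 is positive throughout, and in the left panel Asns and Xbp1 lie near 0.

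The genes outside the 8 that were most like them were largely the same. Fosb, a subunit of AP-1, had the highest rho with Ddit3 (0.340 in the first draw), Atf3 (0.236), Atf4 (0.191), Chac1 (0.155) and Ppp1r15a (0.144). Dnajb1, a heat shock co-chaperone, came next for Ddit3 (0.325), Atf3 (0.201) and Atf4 (0.140). Others were Hspa1a, the inducible heat shock protein, for Ddit3 (0.285), the nuclear receptor Nr4a1 for Atf3 (0.183), Chac1 (0.112) and Ppp1r15a (0.129), and the translation factor Eef1a1 for Ppp1r15a (0.117). For Xbp1 they were Hspa5, the chaperone BiP (0.148), Herpud1 of protein degradation at the endoplasmic reticulum (0.108) and the AP-1 subunit Jund (0.104). For Trib3 they were Ica1l (0.0764), Rhob (0.0747) and Dnajb1 (0.0739), and for Asns they included Gapdh (0.0852) and Ndufa5 (0.0799). These last values are weak and from the first draw, and over 20 draws Ica1l and Ndufa5 dropped to 0.0189 and 0.0339. Over 20 draws the genes outside the 8 most like Trib3 were Fosb (0.0853) and Dnajb1 (0.0796).

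Against whole lists, Ddit3 had a rho of 0.304 with the summed heat shock genes, 0.256 with immediate early genes, 0.175 with the other ATF4 and CHOP targets and 0.151 with the IRE1 and ATF6 arms. Atf3 had 0.207 and Atf4 0.173 with immediate early genes. Xbp1 had 0.147 with the IRE1 and ATF6 arms and -0.0589 with immediate early genes. Chac1 had 0.145 with the other ATF4 and CHOP targets and 0.106 with amino acid transporters, and no rho of Asns with a list exceeded 0.0733, that with amino acid synthesis. When mitochondrial, immediate early and heat shock genes were left out before thinning, the median over the 15 pairs of the 6 genes was 0.09999, against 0.0953 with them. Leaving these genes out changes the total that is thinned, but not a state of the cell that the 6 genes may share. Their part in the correlations was therefore not tested.

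The same relation can be given in levels by grouping beta cells by Ddit3. The grouping uses the thinned counts of the first draw, so it restates the correlations and is no separate support for them. In the 488 cells with 8 or more Ddit3 UMIs, Atf4 averaged 2.22 UMIs (2.09 to 2.35), against 1.44 (1.35 to 1.55) in the 560 cells with 0 or 1. Atf3 averaged 0.828 (0.749 to 0.913) against 0.339 (0.293 to 0.391), Chac1 0.387 (0.334 to 0.447) against 0.246 (0.207 to 0.291), Ppp1r15a 1.59 (1.48 to 1.70) against 1.08 (0.996 to 1.17) and Trib3 0.275 (0.230 to 0.325) against 0.157 (0.126 to 0.194). For these 5 of the 7 other genes the intervals of the high and the low Ddit3 cells did not overlap, where 3.53% of 5666 genes were higher in the high Ddit3 cells with separate intervals and 3.11% lower. Asns averaged 0.385 (0.332 to 0.444) against 0.362 (0.314 to 0.416) and Xbp1 2.01 (1.89 to 2.14) against 2.09 (1.98 to 2.22), both with overlapping intervals. In the groups between, Asns had no steady course, with 0.317 (0.279 to 0.360) at 4 to 5 and 0.421 (0.365 to 0.484) at 6 to 7 Ddit3 UMIs. Immediate early genes together averaged 48.4 UMIs in the high and 29.6 in the low Ddit3 cells.

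**Figure D5:**
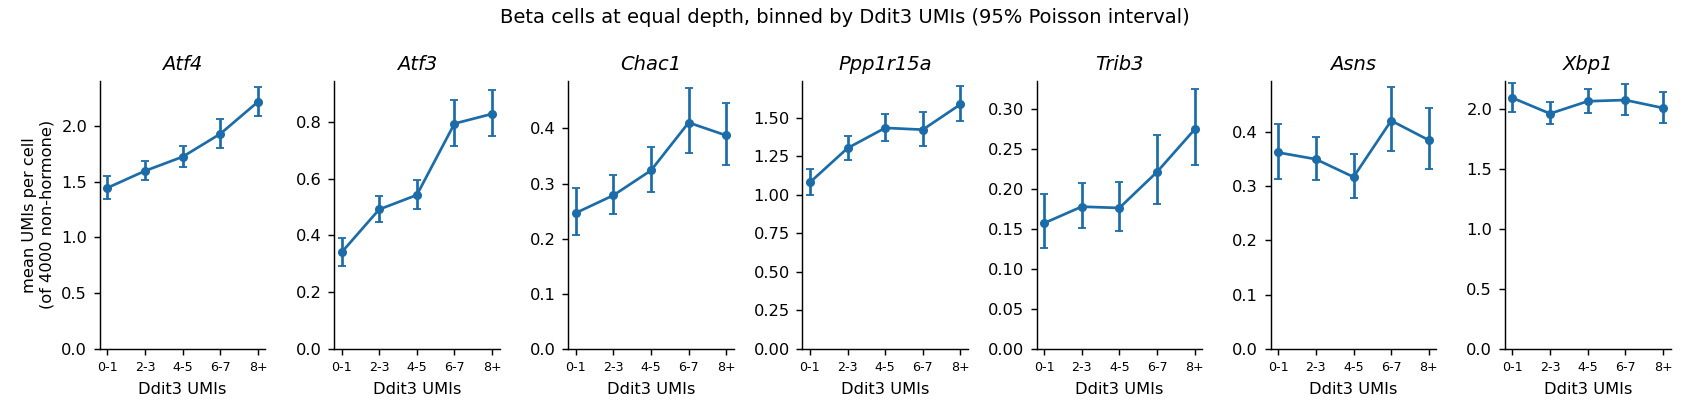
Mean UMIs per beta cell (vertical axis, of 4000 non-hormone UMIs, from 0) of 7 genes in cells grouped by their Ddit3 UMIs (horizontal axis, 0 to 1, 2 to 3, 4 to 5, 6 to 7, and 8 or more), with the 95% Poisson interval as bars. Atf4 reaches 2.22 and Atf3 0.828 UMIs in the highest group, while Asns and Xbp1 average 0.385 and 2.01 there, against 0.362 and 2.09 in the lowest group.

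Several of these genes were lower in beta cells with a higher mitochondrial share. The share of all genes that differed between the same cells was not computed, and mitochondrial UMIs count toward the 4000 UMIs of a thinned cell. Beta cells with under 5% of non-hormone UMIs from mitochondrially encoded genes (299 cells) averaged 1.03 Atf3 UMIs (0.921 to 1.16) and 5.41 Ddit3 UMIs (5.15 to 5.68), and those with 10% or more (488 cells) 0.377 (0.325 to 0.436) and 3.86 (3.69 to 4.04). Atf4 averaged 2.03 and 1.38 UMIs in the same cells, Chac1 0.441 and 0.260 and Ppp1r15a 1.42 and 1.13, with separate intervals. Trib3 averaged 0.184 and 0.150, Asns 0.368 and 0.303 and Xbp1 2.01 and 1.95, with overlapping intervals. Immediate early genes together averaged 59.9 and 25.5 UMIs. With the cells over 10% left out, the median over the 28 pairs was 0.0486. The part of the mitochondrial share in these relations was not tested further.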

How the data were processed

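The deposited values are raw UMI counts per gene for 737280 unfiltered barcodes, per the file headers, from 10x 3′ v2 chemistry, per the labels. FastQC, Trimmomatic and the build mm10 appear in the submitters' processing notes with no version or role. How reads were aligned and counted is not given in the sources used here. One protocol text in the labels concerns sorted goblet cells, while the tissue label and the hormone transcripts are those of islets.

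Classes, sums, ratios, thinning (seed 7) and Spearman correlations were computed with Python 3.11.15, numpy 2.4.6, scipy 1.17.1 and pandas 2.3.3, with figures from matplotlib 3.10.9. Sums have exact Poisson intervals and ratios exact conditional binomial intervals at 95%, with no pseudocount. UMIs are counted molecules, but intervals cover counting error only. The contrast and the correlation were tested on simulated data with known answers. Promoter windows came from RefSeq (GRCm38.p6), matched by symbol for 8 of 8 genes, and gene positions from GENCODE M21 on GRCm38, the assembly that mm10 names.

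The genes, lists, class limits and tests were chosen with earlier results of these data known. Named genes were all 8 genes, the 2 highest and 2 lowest of each list in beta over alpha cells, and the 3 genes with the highest rho with each, of which some are not reported here. Alternatives are given in the closing section. The transgenic library is not analysed here.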

Additional observations from a re-analysis of the deposited data

How the results depend on the processing

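Of 50 alternative values for the counts of genes higher in beta cells and for the median rho, 46 stayed within 1.5 times the count or within the sampling range of the rho. The exceptions were 7 genes higher over alpha cells in place of 4 when ratios of non-hormone UMIs, with or without mitochondrial UMIs (7 in both cases), were not set relative to the median gene, 1 gene higher over delta cells in place of 5 on the scale of all UMIs, and a median rho of 0.0946 in place of 0.0503 without thinning, where depth is not equal. The median rho was 0.0324 at 2500 UMIs and 0.0670 at 6000 UMIs per cell, and both were counted as within its sampling range. That range treats the cells of 1 library as independent and is wide beside a median rho of 0.0503. Staying within it therefore does not show that the median rho is stable, and the 46 include such values. Of 285 alternative log2 ratios of single genes, 280 kept their sign, and the 5 that did not were those of Xbp1 over alpha cells, Atf4 over delta and PP cells and Ppp1r15a over delta cells named above. The alternatives without cells of other classes over 5% insulin (5, 5 and 6 genes higher over alpha, delta and PP cells), without cells over 10% mitochondrial UMIs or over 0.5% haemoglobin, without the mitochondrial, immediate early and heat shock genes, and over 20 draws were chosen after seeing the data. Trib3 falls below a floor of 50 CPM and has no value there. No paired analysis was possible because 1 library was analysed. The delta and PP sums rest on 149 and 117 cells, and 27 and 15 UMIs of Trib3, which sets the width of their intervals.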

Other observations

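Beta cells were also grouped by the share of their UMIs that is insulin, which the thinning to non-hormone UMIs does not use. Ddit3 averaged 4.42 UMIs per thinned cell (4.23 to 4.62) at 30 to 40% insulin, 4.87 (4.74 to 5.01) at 40 to 50%, 4.45 (4.34 to 4.57) at 50 to 60% and 3.39 (3.203 to 3.59) in the 351 cells at 60% or more. Atf3 averaged 0.689 (0.616 to 0.768), 0.661 (0.612 to 0.712), 0.516 (0.478 to 0.556) and 0.370 (0.309 to 0.440) in the same order. Asns ran the other way, at 0.288 (0.241 to 0.341), 0.357 (0.321 to 0.395), 0.377 (0.344 to 0.411) and 0.407 (0.343 to 0.480), with the first and last intervals apart. Xbp1 averaged 2.13 UMIs (2.00 to 2.26) in the first group and 1.78 (1.64 to 1.92) in the last, and Ppp1r15a 1.54 (1.43 to 1.66) and 0.991 (0.890 to 1.10). Atf4 averaged 1.73 (1.61 to 1.85) and 1.55 (1.42 to 1.68), Chac1 0.337 (0.286 to 0.394) and 0.251 (0.201 to 0.309) and Trib3 0.180 (0.144 to 0.223) and 0.177 (0.135 to 0.226), each with overlapping intervals. Immediate early genes together averaged 35.01, 37.0, 38.7 and 36.7 UMIs and so did not follow the same order. This grouping was chosen after the data were seen, and the share of all genes with separate intervals between its groups was not computed.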
